A study of Mus musculus with 40 samples.

Results

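RNA-seq counts of 32 chemokine genes were examined in bone marrow-derived macrophages (BMDMs), obtained by culturing mouse bone marrow with the growth factor M-CSF. The genes comprised 13 CC ligands, 11 CXC and CX3C ligands and 8 receptors. They were chosen by symbol, through the Ensembl identifiers of the deposited table, and all 32 had a row among its 43430 genes. Of these, 29 were counted highly enough to be tested, namely 12 CC ligands, 10 CXC and CX3C ligands and 7 receptors. Ccl17, Cxcl5 and Ackr3 were not, and their counts are given separately.

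BMDMs came from 5 WT and 5 NDI1 mice, all labelled C57/Bl6, and the line that carried NDI1 was of mixed C57Bl/6 J/N background. Both genotypes carried Vav-iCre, a recombinase expressed in hematopoietic cells. The NDI1 mice also carried 1 copy of a lox-stop-lox-NDI1 construct in the Rosa26 locus, so that NDI1, the yeast NADH dehydrogenase, was expressed in every hematopoietic lineage and not in macrophages alone. NDI1 oxidizes NADH but pumps no protons, and piericidin A does not inhibit it. The WT mice had Vav-iCre without the construct. Mice of the study were young adult littermates of both sexes. Cells of each mouse were left untreated, given LPS (100 ng/ml for 4 h), given piericidin A (500 nM), or given piericidin A 30 min before LPS. This gave 8 groups of 5 libraries. The labels give no vehicle for the untreated cells and no duration for piericidin A alone. NDI1 itself has no row in the table, so the transgene could not be checked.

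Chemokines are small secreted proteins that direct the migration of leukocytes. CC ligands such as Ccl2 and Ccl7 attract monocytes through Ccr2, and Ccl3 and Ccl5 bind Ccr1. Cxcl1, Cxcl2 and Cxcl3 attract neutrophils through Cxcr2, and Cxcl9, Cxcl10 and Cxcl11 attract activated T cells through Cxcr3. Macrophages transcribe many of these ligands when LPS, a component of the bacterial outer membrane, engages Toll-like receptor 4. Piericidin A inhibits mitochondrial complex I, which passes electrons from NADH to ubiquinone.

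Libraries held between 6950748 and 13552070 counts. Macrophage markers summed to between 19469 and 37933 CPM (counts scaled to a common library size, here with TMM factors, the scale of all levels below) in all 40 libraries, and the labelled cell type was therefore present throughout. Summed neutrophil markers were below 137 CPM in the libraries of the other mice but reached 389 to 2076 CPM in those of WT mouse 496 and 399 to 666 CPM in those of NDI1 mouse 503. All 8 neutrophil markers were detected in each of the 8 groups. Markers of mast cells, eosinophils, dendritic cells, lymphocytes and stromal cells summed to at most 75.2 CPM. Mast cell, eosinophil, dendritic cell and stromal markers were also highest in mice 496 and 503 in every group of their genotype, and lymphocyte markers in every group but untreated WT cells. In bulk RNA, fewer cells of a type and less RNA per cell cannot be told apart.

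Before treatment, most members were low and a few were not. Untreated WT BMDMs had most of their chemokine RNA, scaled per kilobase of exon, as Ccl9 (238 CPM per kb) and Ccl6 (237.5 CPM per kb), closely related CC ligands that differed by less than the spread between libraries. The receptor Cxcr4 followed at 148 CPM per kb and the transmembrane ligand Cxcl16 at 105 CPM per kb. Every other member was below 17 CPM per kb. The 32 members summed to 1936 ± 248 CPM in untreated WT and to 1921 ± 333 CPM in untreated NDI1 cells (mean ± SD, n = 5, as for all values given in this form).

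LPS raised this sum to 23332 ± 4254 CPM in WT and 23049 ± 2647 CPM in NDI1 cells, or 2.33% and 2.3% of the TMM-scaled library size. Cxcl10 became the highest member at 3920 CPM per kb in WT, ahead of Ccl4 (3083), Ccl5 (2198), Ccl3 (2129) and Ccl9 (1564). Of the 29 members tested in WT, 22 rose and 4 fell with an adjusted p-value below 0.05 (edgeR quasi-likelihood test, Benjamini-Hochberg adjustment over 11853 genes). These are 75.9% and 13.8% of the members, against 31.5% higher and 31.0% lower among all genes tested. In NDI1 cells 22 rose and 3 fell, against 31.5% higher and 31.2% lower among all genes. All 25 members called in NDI1 were also called in WT, and the one called in WT alone was Cxcl14, whose adjusted p in NDI1 was 0.0509. With the mouse as a block, Cxcl14 was called in NDI1 as well. The median log2 fold change in WT was 6.72 for CC ligands, 5.5 for CXC and CX3C ligands, 1.31 for receptors and -0.01 for all genes tested.

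**Figure D1:**
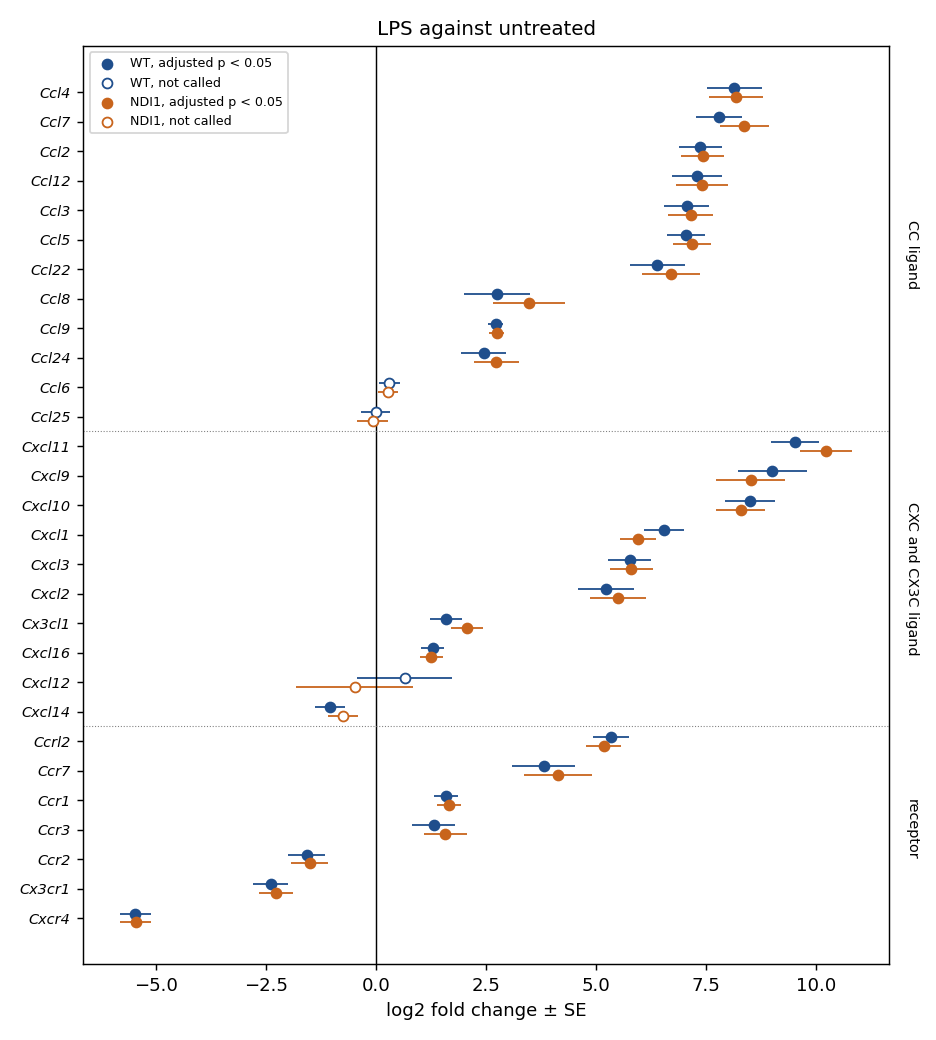
Effect of LPS on the 29 tested members. Points give the log2 fold change of LPS against untreated (horizontal axis) with its SE for WT (blue) and NDI1 (orange), filled where the adjusted p was below 0.05, with genes ordered by the WT value within CC ligands, CXC and CX3C ligands and receptors. Both genotypes lie close together for nearly every gene, from Cxcl11 at 9.52 in WT to Cxcr4 at -5.46.

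Among CC ligands, 10 of 12 rose under LPS in WT and none fell, where 31.5% of all genes rose and 31.0% fell. Ccl4, a macrophage inflammatory protein, showed the largest rise. Its level was 5.05, 9.08, 3.79, 10.6 and 7.54 CPM in the untreated cells of WT mice 449, 452, 453, 496 and 520, and 2424, 1907, 1119, 2765 and 1960 CPM in their LPS-treated cells. Mouse order is the same in every list of WT values below, and the log2 fold change was 8.14 ± 0.62 (SE, adjusted p = 4.33e-14). Ccl7, which recruits monocytes, went from 2.53, 2.86, 0.609, 3.73 and 1.52 CPM to 733.9, 410.6, 364.3, 453.8 and 511 CPM, a log2 fold change of 7.79 ± 0.53 (adjusted p = 2.8e-15). Ccl2, the main monocyte attractant, went from 2.12, 2.67, 1.01, 5.8 and 1.52 CPM to 544, 409.5, 408.3, 360.5 and 433 CPM, a log2 fold change of 7.37 ± 0.49 (adjusted p = 9.46e-16). For all of these genes the lowest LPS value was far above the highest untreated value. Ccl12, Ccl3, Ccl5 and Ccl22 rose by 7.3, 7.06, 7.05 and 6.39 on the log2 scale, while Ccl8, Ccl9 and the eosinophil attractant Ccl24 rose by 2.75, 2.72 and 2.45. Ccl6 (0.31, adjusted p = 0.249) and Ccl25 (-0.0, adjusted p = 0.992) were not called, but Ccl6 was called in both genotypes with the mouse as a block. Ccl25 shares 204 exonic bases with Elavl1 on the other strand, and its reads could not be told apart from those of that gene if strand was not used in counting.

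CC ligand genes lie in 2 groups on chromosome 11 of mm10. Ccl2, Ccl7, Ccl12 and Ccl8 occupy positions 82035571 to 82116799, and their LPS rises in WT spanned 2.75 to 7.79. Ccl5, Ccl9, Ccl6, Ccl3 and Ccl4 occupy positions 83525778 to 83664683, and there the log2 fold changes spanned 0.31 for Ccl6 to 8.14 for Ccl4. Neighbouring genes thus differed widely in their rise in both groups.

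Among CXC and CX3C ligands, 8 of 10 rose in WT and Cxcl14 fell, where 31.5% of all genes rose and 31.0% fell. The 3 largest rises were those of the Cxcr3 ligands, whose genes lie together on chromosome 5 (92321331 to 92365485). Cxcl11 had 0.0815, 0.187, 0.0, 0.238 and 0.0634 CPM in untreated WT cells and 173.3, 82.4, 68.4, 74.6 and 56.4 CPM with LPS, a log2 fold change of 9.52 ± 0.54 (adjusted p = 1.52e-17). The untreated libraries together held 8 counts of it against 3577 with LPS. Each sum was divided by the summed TMM-scaled library sizes of its group. The ratio of these rates was 807.5 with a counting interval of 409 to 1872 (exact 95%, counting error only). The annotation lists Cxcl11 as a polymorphic pseudogene in this strain, and 1582 of its 3794 exonic bases overlap Gm2673 on the other strand. Cxcl9 had 0.0, 0.249, 0.203, 0.238 and 0.127 CPM untreated and 204.6, 89.7, 28.3, 90.3 and 45.4 CPM with LPS, a log2 fold change of 9.0 ± 0.78 (adjusted p = 1.55e-12). Cxcl10 had 14.9, 42.5, 11.8, 24.0 and 28.9 CPM untreated and 11068, 8846, 6460, 9893 and 7874 CPM with LPS, a log2 fold change of 8.5 ± 0.57 (adjusted p = 1.53e-15), and 133 of its 2252 exonic bases overlap Art3 on the other strand. LPS values exceeded untreated ones without overlap for the 3 genes, and WT mouse 449 was the highest in each.

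The neutrophil attractants rose less steeply from low levels. Cxcl1, Cxcl3 and Cxcl2 rose by 6.54, 5.76 and 5.23 on the log2 scale in WT, and these genes lie beside Cxcl5 within 146.6 kb of chromosome 5. Cx3cl1, the ligand of Cx3cr1, rose by 1.6. Cxcl16, which binds Cxcr6, rose by 1.29, but 552 of its 3021 exonic bases overlap Zmynd15 on the other strand. Cxcl14, a ligand constitutively made by epithelia, had 12.5, 12.2, 14.8, 35.8 and 27.4 CPM untreated and 8.71, 5.66, 11.0, 11.1 and 13.8 CPM with LPS. These values overlapped between the groups, and the fall of 1.04 on the log2 scale (SE 0.34, adjusted p = 0.00764) lost its call without WT mouse 496 (adjusted p at most 0.0589). Cxcl12, the ligand of Cxcr4, was below 4 CPM in every untreated WT library and its log2 fold change was 0.66 ± 1.08 (adjusted p = 0.609).

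All 7 tested receptors changed under LPS in both genotypes, 4 upwards and 3 downwards. Of all genes in WT, 31.5% rose and 31.0% fell. Ccrl2, an atypical receptor that binds chemerin and does not signal through G proteins, rose most. In WT it went from 11.8, 25.4, 22.9, 30.0 and 21.2 CPM to 967, 948, 768, 1046 and 793 CPM, a log2 fold change of 5.34 ± 0.4 (adjusted p = 3.99e-14). Ccr7, which guides dendritic cells to lymph nodes, went from 0.244, 0.622, 0.135, 1.27 and 0.127 CPM to 5.99, 6.3, 3.23, 16.7 and 1.36 CPM, a log2 fold change of 3.81 ± 0.72 (adjusted p = 2.18e-05). Mouse 496 was the highest of the WT mice for Ccr7 in both states, and with LPS it was also the highest for neutrophil markers, for dendritic cell markers (18.2 CPM against 8.58 to 10.7), for lymphocyte markers (7.68 CPM against at most 1.51) and for stromal markers (43.7 CPM against at most 10.5). In NDI1 cells with LPS, Ccr7 (14.8 CPM) and dendritic cell markers (22.7 CPM) were highest in mouse 503. Ccl22 with LPS was highest in the same mice, at 77.7 CPM in mouse 496 and 76.9 CPM in mouse 503. The part of other cells in these levels was not tested. Ccr1 went from 13.0, 12.0, 18.1, 15.2 and 10.3 CPM to 41.5, 37.9, 44.0, 28.9 and 56.0 CPM, a log2 fold change of 1.6 ± 0.27 (adjusted p = 3.23e-06). Ccr3 rose by 1.31 (adjusted p = 0.0189).

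Cxcr4, the receptor of Cxcl12 that retains cells in bone marrow, fell the most of all members. It went from 300.3, 225, 269.5, 293 and 251.5 CPM to 6.39, 5.34, 4.79, 6.44 and 7.56 CPM in WT, a 44.1-fold lower level (log2 fold change -5.46 ± 0.35, adjusted p = 3.8e-16). Both groups were tight and far apart. In NDI1 cells Cxcr4 went from 277 ± 45.5 to 6.33 ± 2.51 CPM. Cx3cr1, a receptor of resident macrophages and monocytes, went from 17.3, 12.2, 13.3, 28.0 and 28.1 CPM to 2.45, 2.88, 2.9, 8.5 and 2.12 CPM, a log2 fold change of -2.39 ± 0.39 (adjusted p = 1.62e-06). Ccr2, the receptor of Ccl2, fell from 26.1 ± 4.02 to 8.87 ± 3.89 CPM (log2 fold change -1.57, adjusted p = 0.00151). Cxcr4 was the third highest member per kilobase in untreated WT cells and the 23rd under LPS.

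Piericidin A alone raised a set of ligands and receptors in WT, and no member passed the test in NDI1. In WT, 9 of 29 members rose and none fell, which is 31.0% of the members against 7.79% higher and 7.05% lower among all genes tested. The 9 were the CC ligands Ccl2, Ccl3 and Ccl4, the CXC ligands Cxcl1, Cxcl2, Cxcl3 and Cxcl10, and the receptors Ccrl2 and Cxcr4. In WT the summed members went from 1936 ± 248 to 3912 ± 1755 CPM. The NDI1 sums were 1921 ± 333 CPM untreated and 2020 ± 356 CPM with piericidin A.

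Stretches of the promoters of these genes are shown because the genes rose together. RefSeq windows on GRCm38.p6, from 250 bases before to 50 bases after the start of transcription, were found for 7 of the 9 genes (not for Ccl2 and Ccl4) and for 23 of the 32 members. Each line below runs 5′ to 3′ on the strand of the gene and ends 31 bases before the start, or 91 bases for Cxcl10. Capitals mark each match, on either strand, to an NF-κB-like motif (GGNNNTTCC) or an interferon-response-like motif (GAAANNGAA).
Cxcl1: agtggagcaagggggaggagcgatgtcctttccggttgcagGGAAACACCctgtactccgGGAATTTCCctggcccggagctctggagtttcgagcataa
Cxcl2: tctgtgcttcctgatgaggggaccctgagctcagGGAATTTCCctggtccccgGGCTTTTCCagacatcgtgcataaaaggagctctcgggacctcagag
Cxcl3: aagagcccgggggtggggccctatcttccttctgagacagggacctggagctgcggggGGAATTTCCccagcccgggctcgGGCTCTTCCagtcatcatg
Ccrl2: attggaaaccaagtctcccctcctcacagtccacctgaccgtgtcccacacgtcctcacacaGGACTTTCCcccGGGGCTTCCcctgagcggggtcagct
Cxcl10: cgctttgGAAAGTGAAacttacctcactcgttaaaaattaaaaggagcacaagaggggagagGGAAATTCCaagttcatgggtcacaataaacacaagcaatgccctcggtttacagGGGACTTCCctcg
Ccl3: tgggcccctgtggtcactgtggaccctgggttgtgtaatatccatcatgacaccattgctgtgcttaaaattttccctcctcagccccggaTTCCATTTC
Cxcr4: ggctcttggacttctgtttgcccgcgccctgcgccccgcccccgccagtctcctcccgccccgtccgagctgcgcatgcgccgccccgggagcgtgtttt
The stretches are chr5:90891115-90891214, chr5:90903769-90903868 and chr5:90785971-90786070 on the plus strand, and chr9:111057549-111057648, chr5:92348980-92349109, chr11:83649409-83649508 and chr1:128592330-128592429 on the minus strand. Cxcl1, Cxcl2 and Cxcl3 share the exact match GGAATTTCC, at 70, 96 and 72 bases before their starts. The NF-κB-like motif was in the windows of 5 of the 7 genes, of 11 of the 23 members and of 10 of the 14 LPS-raised members with a window, and in those of 20.7% of all 27025 genes (18.5% of all 32851 windows). It was not found in those of Ccl3 and Cxcr4. The interferon-response-like motif was in the windows of 5 of the 23 members and in those of 9.76% of all genes (8.56% of all windows). An AP-1-like motif (TGANTCA) was in those of 4 of the 23 and of 8.97% of all genes (7.81% of all windows), and the stress-response element TGATGNAA in those of 0 of the 23 and of 4.51% of all genes (3.97% of all windows). A match describes the letters of a window and does not locate a bound factor.

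**Figure D2:**
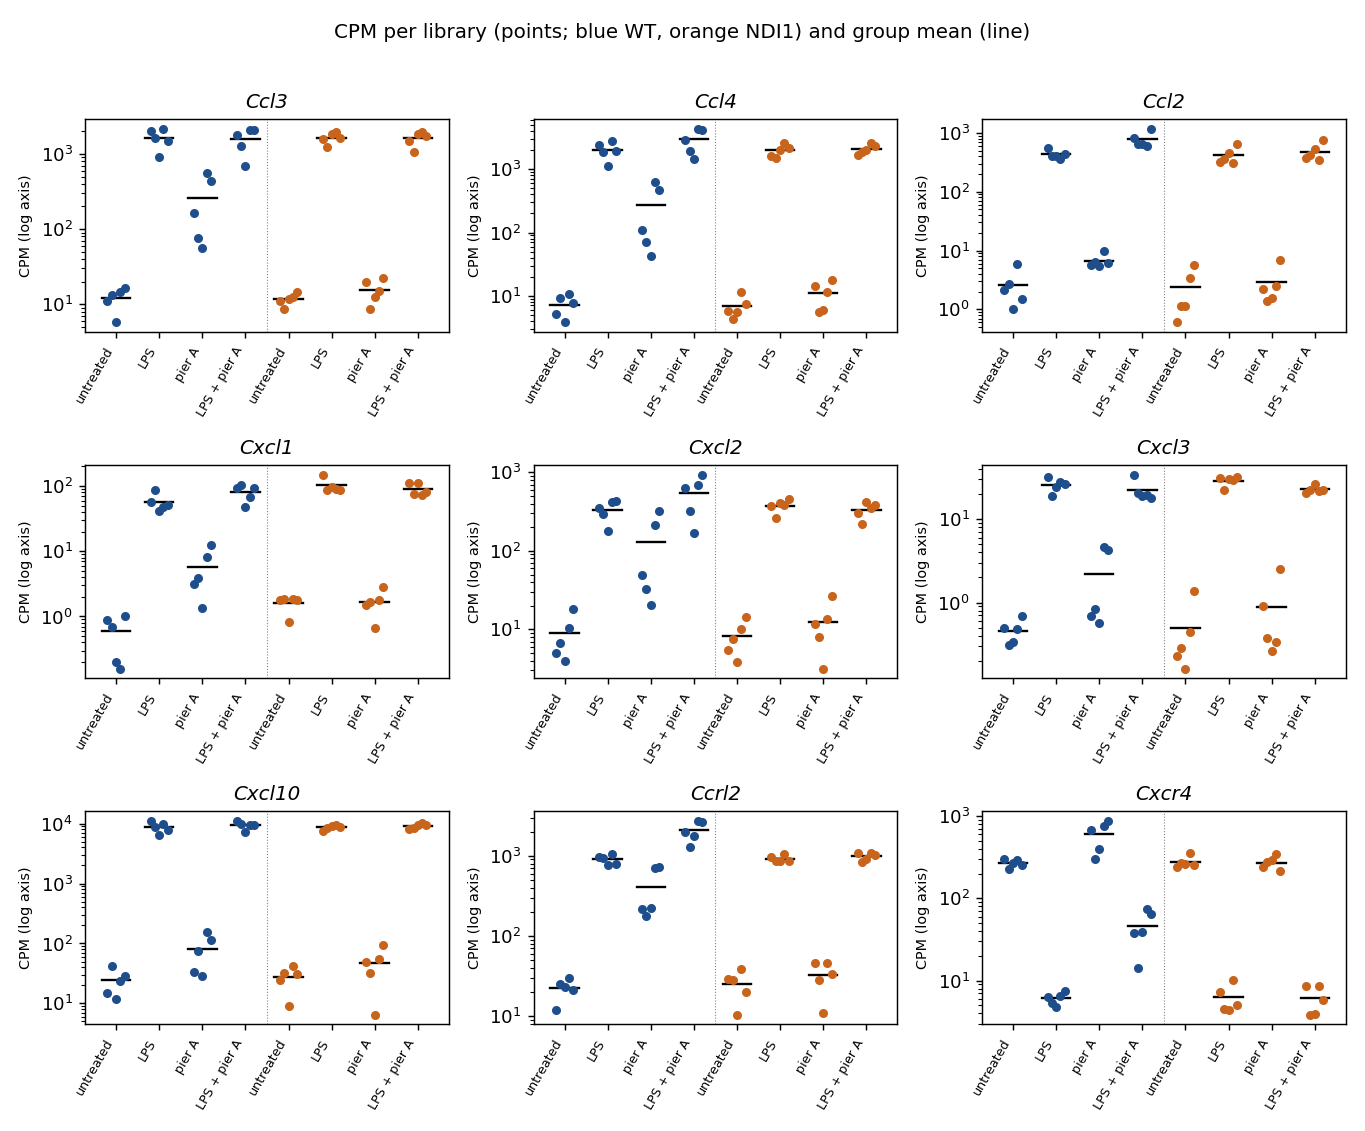
Levels of the 9 members called for piericidin A at rest in WT. Each point is the CPM of 1 library (log axis), blue for WT and orange for NDI1, in mouse order within a group, and each line is the group mean. In WT the piericidin A points of Ccl3, Ccl4 and Ccrl2 lie wholly above the untreated points, while the NDI1 points of both groups overlap.

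The macrophage inflammatory proteins Ccl3 and Ccl4, whose genes are neighbours on chromosome 11, rose from similar low levels. Ccl3 had 10.9, 13.4, 5.75, 14.4 and 16.5 CPM untreated and 163.7, 77.1, 55.9, 565 and 433 CPM with piericidin A in WT, a log2 fold change of 4.41 ± 0.45 (adjusted p = 8.01e-09). Ccl4 reached 109, 70.1, 43.2, 640.0 and 477 CPM, a log2 fold change of 5.21 ± 0.55 (adjusted p = 1.24e-08). All 5 WT mice rose for both genes, and mice 496 and 520 rose the most. Ccl2 reached 5.75, 6.41, 5.54, 9.97 and 6.15 CPM, a log2 fold change of 1.38 ± 0.43 (adjusted p = 0.0255). These values overlapped the untreated range, since untreated cells of mouse 496 had 5.8 CPM, and the call for Ccl2 was lost without mouse 449, 452, 453 or 520 (adjusted p at most 0.105). In NDI1, Ccl3 had 10.9, 8.61, 11.7, 12.4 and 14.4 CPM untreated and 19.7, 8.52, 12.6, 15.2 and 22.5 CPM with piericidin A for mice 447, 460, 461, 503 and 521, an order kept in every NDI1 list. The NDI1 log2 fold changes were 0.44 (95% interval -0.40 to 1.27) for Ccl3, 0.68 (-0.32 to 1.68) for Ccl4 and 0.27 (-0.66 to 1.19) for Ccl2.

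The CXC ligands that rose were mainly the neutrophil attractants. Cxcl2 had 5.05, 6.72, 3.92, 10.4 and 18.4 CPM untreated and 50.0, 32.4, 20.2, 215.3 and 323 CPM with piericidin A, a log2 fold change of 3.84 ± 0.6 (adjusted p = 2.29e-05). Cxcl1 went from 0.896, 0.684, 0.203, 0.159 and 1.01 CPM to 3.1, 3.83, 1.33, 8.13 and 12.5 CPM, a log2 fold change of 3.21 ± 0.47 (adjusted p = 9.74e-06). Neither gene overlapped between the WT groups. Cxcl3 went from 0.489, 0.311, 0.338, 0.477 and 0.697 CPM to 0.681, 0.836, 0.561, 4.64 and 4.2 CPM, a log2 fold change of 2.15 ± 0.55 (adjusted p = 0.00677). Cxcl10 went from 14.9, 42.5, 11.8, 24.0 and 28.9 CPM to 33.6, 74.2, 28.2, 156 and 113 CPM, a log2 fold change of 1.73 ± 0.43 (adjusted p = 0.00537). Both overlapped between the groups. Cxcl3 lost its call without mouse 496 or without mouse 520 and Cxcl10 without mouse 496, with adjusted p-values of at most 0.114 and 0.0857. The other Cxcr3 ligands, Cxcl9 and Cxcl11, had fewer than 1 CPM in every WT library without LPS, and their log2 fold changes of 0.37 ± 1.47 and 0.79 ± 1.06 were not called.

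The receptors that rose were Ccrl2 and Cxcr4. Ccrl2 went from 11.8, 25.4, 22.9, 30.0 and 21.2 CPM to 215.4, 175, 226, 703 and 728 CPM, a log2 fold change of 4.2 ± 0.38 (adjusted p = 6.27e-10), the lowest p of any member in this comparison. Cxcr4 went from 300.3, 225, 269.5, 293 and 251.5 CPM to 674, 299, 393, 754 and 871 CPM, a log2 fold change of 1.16 ± 0.28 (adjusted p = 0.00417). Each mouse rose for both genes, but for Cxcr4 the lowest piericidin A value lay just below the highest untreated one. In NDI1 the log2 fold changes were 0.37 (95% interval -0.33 to 1.08) for Ccrl2 and -0.03 (-0.59 to 0.53) for Cxcr4. Ccr3 was not called in WT (log2 fold change -1.18, adjusted p = 0.115), with lower values under piericidin A in all 5 WT mice. Over all 29 members in NDI1, log2 fold changes lay between -0.84 for Ccl24 and 0.99 for Ccl12. In NDI1, 0 members passed, against 0.0% of all genes. At an unadjusted p below 0.05, edgeR gave 0 members, and over all genes it gave 58 against 59 with DESeq2. These 58 were 0.489% of all genes, less than a threshold of 0.05 lets through without any effect. The fit without a block of mouse was thus conservative here, and the absence of calls does not show an absence of effect. With the mouse as a block, 284 of all genes and 0 members had such an unadjusted p, and 0 members were called.

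**Figure D3:**
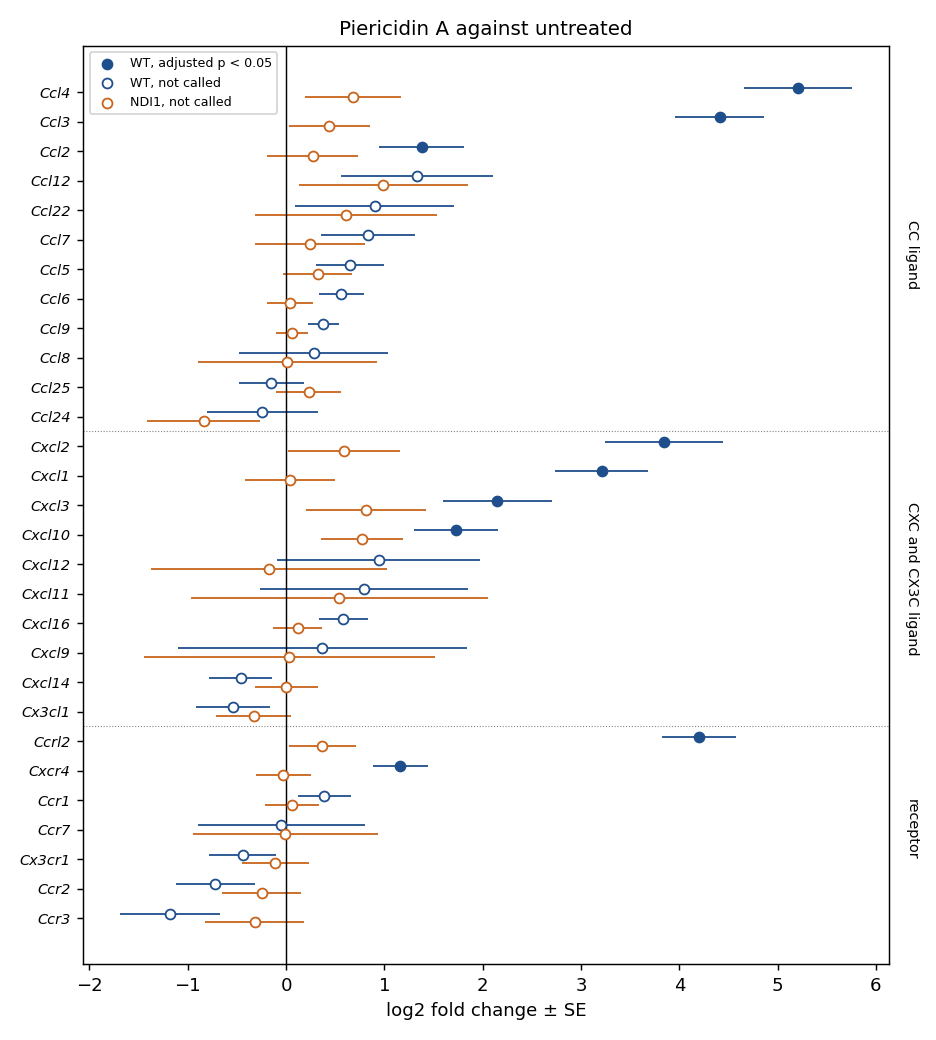
Effect of piericidin A without LPS on the 29 tested members. Points give the log2 fold change against untreated (horizontal axis) with its SE for WT (blue, filled where adjusted p was below 0.05) and NDI1 (orange). The 9 called WT genes lie between 1.16 and 5.21, and no NDI1 point exceeds 0.99.

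The 9 genes rose unevenly between WT mice. Mice 496 and 520 were among the 2 largest effects for 8 and 9 of the 9 genes. Without mouse 496, 7 members were called, and without mouse 520, 7 were. Mouse 496 had the highest neutrophil markers of the WT mice, at 389 CPM untreated and 1302 CPM with piericidin A, while mouse 520 had 44.2 and 62.7 CPM. No neutrophil marker of the 7 tested was called in this comparison, with a median log2 fold change of 1.53. Without mice 496 and 503, 7 of the members were still called, namely all but Cxcl3 and Cxcl10. In the remaining WT mice summed neutrophil markers were also higher with piericidin A. They were at 28.2, 98.5, 43.6 and 62.7 CPM, against 21.4, 84.5, 25.9 and 44.2 CPM untreated. Their part in the rise of the members was not tested. All 9 genes were higher with piericidin A in each of the 5 WT mice.

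With the mouse as a block, 16 members were called in WT (34.2% of all genes passed in that fit). The block added Ccl5, Ccl6, Ccl7, Ccl9 and Cxcl16, which were higher, and Ccr2 and Ccr3, which were lower. The blocked log2 fold changes of the added genes included 0.49 for Ccl6 (adjusted p = 0.000109), 0.53 for Cxcl16 (adjusted p = 0.00213), -0.77 for Ccr2 (adjusted p = 0.00234) and -1.38 for Ccr3 (adjusted p = 0.000185). In the same fit 5 of 7 neutrophil markers were higher, and their part in these calls was not tested.

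The difference between genotypes was tested directly. The effect of piericidin A at rest was smaller in NDI1 than in WT for 5 of 29 members, or 17.2%, against 1.27% of all genes in either direction. The differences, NDI1 minus WT, were -4.53 ± 0.7 for Ccl4 (adjusted p = 0.000134), -3.97 ± 0.59 for Ccl3 (adjusted p = 6.33e-05), -3.82 ± 0.5 for Ccrl2 (adjusted p = 9.19e-06), -3.25 ± 0.8 for Cxcl2 (adjusted p = 0.0283) and -3.17 ± 0.67 for Cxcl1 (adjusted p = 0.00701). The effects in single mice did not overlap between the genotypes for any of the 5. Ccrl2 changed by 2.77 to 5.09 on the log2 CPM scale in WT mice and by -0.03 to 0.74 in NDI1 mice. Non-overlap was found for 7 of 29 members, the other two being Cxcr4 and Ccr3, and for 11.4% of all genes. Ccl3, Ccl4 and Ccrl2 were called under all 17 alternatives. Cxcl1 was lost without WT mouse 496 (adjusted p at most 0.142). Untreated Cxcl1 was 1.43 higher on the log2 scale in NDI1 than in WT, which was not called but enters its difference in effect. With piericidin A its levels overlapped between genotypes, at 1.33 to 12.5 CPM in WT and 0.662 to 2.85 CPM in NDI1. Cxcl2 was lost under 9 of the 17, which include leaving out WT mouse 449, 496 or 520 or NDI1 mouse 447, 460, 461 or 503 and fitting the compared libraries alone, with adjusted p up to 0.257. Cxcr4 differed by -1.19 and was not called (adjusted p = 0.142) except with the block (adjusted p = 0.00619) and without WT mouse 452.

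The size of the rise under piericidin A alone was set against that under LPS in the same mouse. For the 22 members raised by LPS, the share of the LPS rise reached without LPS had a WT median above 5% for 6 members, between 1% and 5% for 6 and below 1% for 10, among them Ccr3 at -39.1% (-202.2% to -15.9%), which was lower with piericidin A than untreated. It was 27.2% for Ccrl2 (16.2% to 91.5% over WT mice), 18.9% for Cxcl16 (14.4% to 66.4%), 13.0% for Cxcl2 (8.95% to 72.8%), 11.4% for Ccr1 (-12.4% to 30.4%), 7.7% for Ccl3 (4.0% to 28.6%) and 5.39% for Ccl9 (-0.0938% to 7.83%). Of these 6, Cxcl16, Ccr1 and Ccl9 were not called at rest (adjusted p = 0.122, 0.347 and 0.106), and with the block Ccr1 was not either (adjusted p = 0.078). Ccl4, just below 5%, had 4.32% (3.22% to 24.0%). Other ligands raised by LPS had smaller shares, such as 1.07% for Ccl2, 0.397% for Ccl7, 0.358% for Ccl5, 0.361% for Cxcl10 and 0.0403% for Cxcl11. In NDI1 the medians were 0.721% for Ccrl2, 0.95% for Cxcl2, 0.146% for Ccl3 and 0.0787% for Ccl4. The 1 NDI1 median above 5% was that of Cxcl16, at 7.94% (-1.27% to 20.1%). The same untreated library enters both rises, so these shares are a description without a test.

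**Figure D4:**
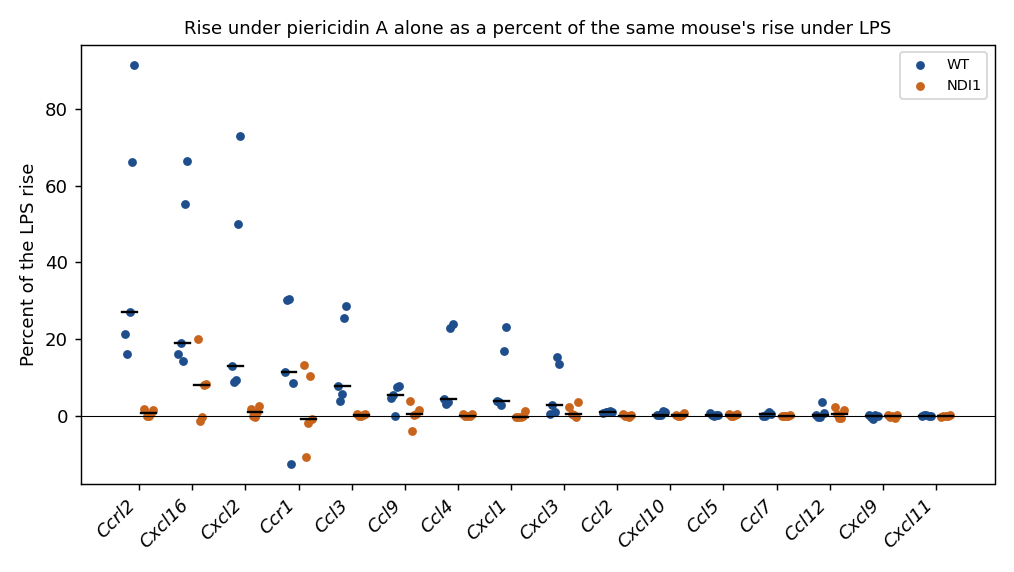
Rise in CPM under piericidin A alone as a percentage of the rise in the same mouse under LPS (vertical axis) for 16 LPS-raised members. Each point is 1 mouse, blue for WT and orange for NDI1, and lines are medians. Ccrl2 and Cxcl2 reach 91.5% and 72.8% in single WT mice. The NDI1 points of Ccrl2 and Cxcl2 reach at most 1.82% and 2.64%, and the highest NDI1 point shown is 20.1%, for Cxcl16.

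Under LPS, piericidin A raised the receptors Cxcr4 and Ccrl2 in WT and lowered the ligand Ccl9. The 2 that rose are 6.9% of the members, near the 7.81% of all genes, and the 1 that fell is 3.45% against 8.92%. With the mouse as a block, 11 members were called, or 37.9% against 34.5% of all genes, and they comprised 5 CC ligands, 1 CXC ligand and 5 receptors. In NDI1, 0 members were called against 0.0% of all genes, with log2 fold changes between -0.63 for Cx3cl1 and 0.24 for Ccl7. There, at an unadjusted p below 0.05, edgeR gave 0 members, and over all genes it gave 127 against 130 with DESeq2. These 127 were 1.07% of all genes, so the fit without the block was conservative here too. With the block, 334 of all genes and 1 member had such an unadjusted p, and 0 members were called.

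Cxcr4 rose under LPS in WT from 6.39, 5.34, 4.79, 6.44 and 7.56 CPM to 37.6, 14.4, 39.5, 74.8 and 65.1 CPM, a 7.63-fold higher level (log2 fold change 2.93 ± 0.32, adjusted p = 8.02e-08). The lowest value with piericidin A was above the highest without it. NDI1 cells had 7.35, 4.52, 4.45, 10.3 and 5.04 CPM with LPS and 8.53, 3.86, 3.97, 8.65 and 5.78 CPM with both, a log2 fold change of -0.05 (95% interval -0.73 to 0.63). The difference between genotypes was -2.98 ± 0.46 (adjusted p = 0.000281) and stayed called under all 17 alternatives, with a highest adjusted p of 0.01. This was 1 member of 29, or 3.45%, against 0.979% of all genes. WT cells with both agents were nonetheless far below untreated WT cells, at 46.3 ± 24.0 against 268 ± 30.9 CPM. Summed neutrophil markers were also highest in WT cells with both agents (77.3 to 2076 CPM, against 40.5 to 784 with LPS) and were higher with both agents than with LPS in each of the 5 WT mice. Their part in the rise of Cxcr4 was not tested. Without mice 496 and 503 Cxcr4 was called in this comparison and in the genotype difference, but the markers were higher in the remaining WT mice too.

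Ccrl2 rose under LPS in WT from 967, 948, 768, 1046 and 793 CPM to 2003, 1284, 1740, 2720.2 and 2601 CPM, a log2 fold change of 1.19 ± 0.34 (adjusted p = 0.0131). These ranges did not overlap, but the call was lost without mouse 496 or without mouse 520, with adjusted p up to 0.0795. In NDI1 its log2 fold change was 0.11 (95% interval -0.57 to 0.79). Ccl9 went from 4552, 4514, 4074, 4882 and 5792 CPM to 3665, 3909, 3158, 2546 and 3146 CPM, a log2 fold change of -0.54 ± 0.16 (adjusted p = 0.0183). It also lost its call without mouse 496 or 520 and when only the compared libraries were fitted (adjusted p at most 0.148). Because of these genes, leaving out mouse 496 or mouse 520 left 1 called member, Cxcr4. Mean receptor RNA summed to 1005 ± 128 CPM with LPS and 2214 ± 620 CPM with both agents in WT, and to 1018 ± 90.8 and 1078 ± 102 CPM in NDI1.

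**Figure D5:**
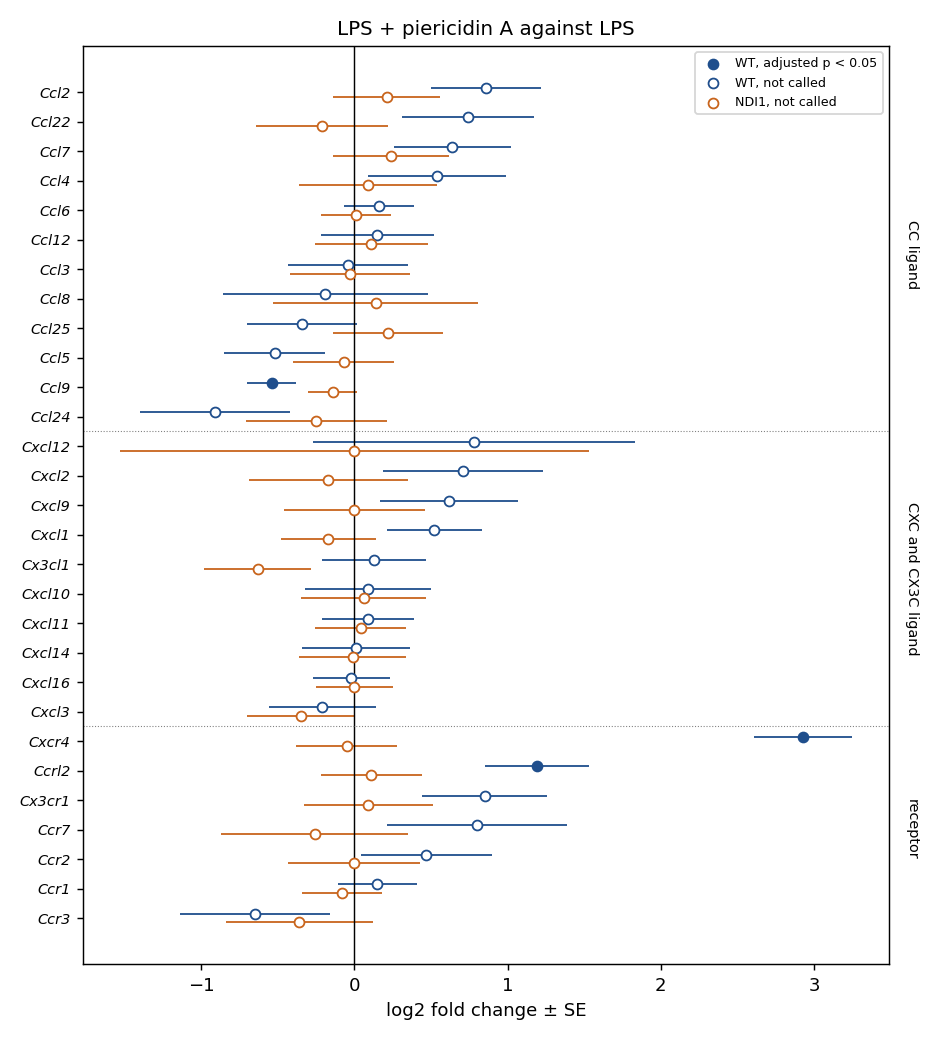
Effect of piericidin A in LPS-treated cells on the 29 tested members. Points give the log2 fold change of LPS + piericidin A against LPS (horizontal axis) with its SE for WT (blue, filled where adjusted p was below 0.05) and NDI1 (orange). Cxcr4 at 2.93 stands apart in WT, and no NDI1 point was called.

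The ligands with the largest rises at rest were not called under LPS. Ccl3 had 1996, 1608, 901, 2177 and 1474 CPM with LPS and 1807, 1274, 702, 2100 and 2069.9 CPM with both agents in WT, a log2 fold change of -0.04 ± 0.39 (adjusted p = 0.961). Ccl4 changed by 0.54 ± 0.45, Cxcl1 by 0.52 ± 0.31, Cxcl2 by 0.71 ± 0.52 and Cxcl3 by -0.21 ± 0.35, none of them called. The effect of LPS with piericidin A was tested against that without it in WT. By its definition this difference equals the effect of piericidin A under LPS minus its effect at rest. It therefore contains the rises at rest given above and is not separate from them. The difference was called for 8 members, or 27.6% against 4.75% of all genes, and was negative for 7 of them. The differences were -4.67 for Ccl4 (adjusted p = 2.94e-05), -4.44 for Ccl3 (adjusted p = 1.11e-05), -3.13 for Cxcl2 (adjusted p = 0.0122), -3.0 for Ccrl2 (adjusted p = 0.000155), -2.69 for Cxcl1 (adjusted p = 0.00377), -2.36 for Cxcl3 (adjusted p = 0.0281) and -0.92 for Ccl9 (adjusted p = 0.0128). For Cxcr4 the difference was 1.77 (adjusted p = 0.0089), which is a smaller fall. Without WT mouse 496 the call was left for 3 of them, Ccl3, Ccl4 and Ccrl2, and without WT mouse 520 for 6, which left out Ccl9 and Cxcl3. With the mouse as a block 13 members were called, against 17.4% of all genes, which added Ccl5, Ccr2, Cx3cr1, Cxcl10 and Cxcl16.

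For piericidin A under LPS in WT, the block of mouse added Ccl2 (log2 fold change 0.84, adjusted p = 0.00432), Ccl7 (0.63, adjusted p = 0.0139), Ccl22 (0.84, adjusted p = 0.000641), Cxcl9 (0.45, adjusted p = 0.0431), Ccr7 (0.81, adjusted p = 0.00632) and Cx3cr1 (0.85, adjusted p = 0.0277), which were higher. It also added Ccl5 (-0.49, adjusted p = 0.0475) and Ccr3 (-0.84, adjusted p = 0.00834), which were lower. For Ccl2, LPS-treated WT cells had 544, 409.5, 408.3, 360.5 and 433 CPM and cells with both agents had 823, 652, 649, 600.3 and 1185 CPM, higher in each mouse. In the same fit 5 of 7 neutrophil markers were higher, and their part in these calls was not tested. The block added Ccl22, which attracts Ccr4-bearing T cells, to the genotype difference (-1.07, adjusted p = 0.00989, 9.5% of all genes called). Effects in single mice did not overlap between genotypes for 5 members, Ccl2, Ccl22, Ccr7, Ccrl2 and Cxcr4, against 9.74% of all genes.

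The genotypes were also compared directly in untreated cells, with LPS and with both agents, but not with piericidin A alone. Untreated and with LPS, 0 members were called, against 0.0% of all genes in each case. At an unadjusted p below 0.05, edgeR and DESeq2 each gave 1 member in both comparisons, which for edgeR was Cxcl1. Cxcl1 had 1.81, 1.85, 0.811, 1.88 and 1.79 CPM in untreated NDI1 cells against 0.896, 0.684, 0.203, 0.159 and 1.01 CPM in WT, and 149.3, 88.5, 95.5, 89.9 and 88.3 CPM against 56.5, 87.2, 41.2, 47.7 and 50.5 CPM with LPS. Its log2 differences of 1.43 and 0.85 had an adjusted p of 1.0. Over all genes, 39 had an unadjusted p below 0.05 untreated and 141 with LPS by edgeR, and 50 and 116 by DESeq2. The edgeR counts were 0.329% and 1.19% of all genes, less than a threshold of 0.05 lets through without any effect. The test was thus conservative in these comparisons too.

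With LPS and piericidin A, 2 members were lower in NDI1 than in WT, or 6.9% against 12.0% of all genes in either direction. Cxcr4 differed by -2.92 (adjusted p = 9.12e-08) and Ccrl2 by -1.07 (adjusted p = 0.0325). Ccrl2 had 1072, 842, 904, 1097 and 1009 CPM in NDI1 cells with both agents against 2003, 1284, 1740, 2720.2 and 2601 CPM in WT, without overlap. The call for Ccrl2 was lost without NDI1 mouse 447, 460 or 521 or WT mouse 496 or 520, while Cxcr4 was called in each of these.

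The 3 untested members had few counts. Ccl17, a ligand of Ccr4, had 0 counts in all 10 untreated libraries and 11 and 9 summed counts in the LPS libraries of WT and NDI1. Without the filter on low counts its rise under LPS was called in both genotypes (adjusted p = 0.00277 and 0.00738). Cxcl5 had 27 summed counts in WT cells with both agents, 1 to 9 per library, and 0 in each of the 5 NDI1 libraries, while LPS alone gave 12 and 13. Without the filter this difference between genotypes had an adjusted p of 0.0137, but the difference in the effect of piericidin A did not pass (adjusted p = 0.206). Ackr3, a scavenger of Cxcl12, had 1 count in each of 3 NDI1 libraries and none elsewhere.

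Other genes of the chemokine system were examined as lists. Of 14 other ligands, 3 were tested and none was called under LPS in WT. Of 15 other receptors, 5 were tested, and 2 rose and 1 fell, where 31.5% of all genes rose and 31.0% fell. Xcr1 (log2 fold change 4.03, adjusted p = 9.98e-13) and Ccr9 (2.95, adjusted p = 0.000101) rose under LPS, and Cxcr3 fell by 0.95 on the log2 scale (adjusted p = 0.0422). Mean Xcr1, which is also on the list of dendritic cell markers, was 5.9 CPM with LPS, and 2223 of the 10260 exonic bases of Ccr9 overlap other genes. None of these ligands and receptors was called for piericidin A in WT, at rest or under LPS, by edgeR or DESeq2, and at an unadjusted p below 0.05 edgeR gave 1 ligand in each comparison. Of all genes 7.79% rose and 7.05% fell at rest and 7.81% and 8.92% under LPS. With the mouse as a block, Pf4 (log2 fold change 0.49, adjusted p = 0.00233) and the chemerin receptor Cmklr1 (0.59, adjusted p = 0.000392) were also called under LPS, where 71.9% of all genes passed. Cmklr1 was then lower with piericidin A, with log2 fold changes of -0.68 under LPS (adjusted p = 0.000653) and -0.4 at rest (adjusted p = 0.0277), and Cxcl15 was higher at rest (1.6, adjusted p = 0.0251).

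Of 28 genes that transmit or desensitize receptor signals, 12 rose and 8 fell under LPS in WT, where 31.5% of all genes rose and 31.0% fell. Rgs16, Rgs1 and Rgs14, which speed the return of G proteins to their inactive state, rose by 3.14, 2.67 and 2.66 on the log2 scale, and Pik3r6, a regulatory subunit of PI3Kγ, by 1.9. Gm28513 overlaps 236 of the 2339 exonic bases of Rgs16 on the other strand. Arrb1, the arrestin that uncouples receptors, fell by 2.59. With piericidin A under LPS, 3 of the 28 rose and 4 fell, against 7.81% and 8.92% of all genes. Gng2 (log2 fold change 0.71, adjusted p = 0.000289), Rgs10 (0.63, adjusted p = 0.00965) and Arrb1 (0.61, adjusted p = 0.0114) were higher. Pik3cg (-0.93, adjusted p = 0.00702), the catalytic subunit of PI3Kγ, was lower, as were Rgs14 (-0.73, adjusted p = 0.00643) and the regulatory subunits Pik3r6 (-0.65, adjusted p = 0.0108) and Pik3r5 (-0.47, adjusted p = 0.0198). At rest, piericidin A raised 2 of the 28 and lowered 5, against 7.79% and 7.05% of all genes. Rgs1 rose by 2.33 on the log2 scale (adjusted p = 2.29e-05), and its effect was smaller in NDI1 by a difference of -2.13 (adjusted p = 0.0195). Arrb1 had a log2 fold change of -0.92 (adjusted p = 0.000131), opposite in sign to its change with piericidin A in LPS-treated cells. With the block, 6 rose and 11 fell under LPS and 4 rose and 8 fell at rest, against the 34.5% and 34.2% of all genes called in those fits. The genotype difference at rest was then called for 3 of the 28, Rgs1, Gng2 and Arrb1, against 8.96% of all genes.

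Of 13 genes listed for chemokine processing and for the control of chemokine mRNA, 9 rose and 2 fell under LPS in WT, against the same 31.5% and 31.0% of all genes. Nfkbiz, a nuclear cofactor of NF-κB, rose by 5.88 on the log2 scale, and Zc3h12a and Zfp36, which degrade inflammatory mRNAs, by 3.64 and 3.14. Mmp14, a membrane protease, rose by 2.57 and Zfp36l1 fell by 3.58, but 1672 of the 2990 exonic bases of Zfp36l1 overlap Gm26669 on the other strand. At rest, piericidin A raised 3 of the 13 in WT, against 7.79% of all genes. Zc3h12a rose by 1.46 (adjusted p = 9.6e-08), Zfp36 by 1.2 (adjusted p = 3.46e-05) and Nfkbiz by 1.13 (adjusted p = 0.0102) on the log2 scale. The effect was smaller in NDI1 than in WT for Zc3h12a (adjusted p = 0.000374) and Zfp36 (adjusted p = 0.0221), where 1.27% of all genes differed. Under LPS, piericidin A called 1 of the 13 in WT, near the 7.81% of all genes that rose, and this was Zfp36l1, which rose by 1.41 (adjusted p = 0.0109). With the block, 4 of the 13 were called under LPS and 5 at rest, near the 34.5% and 34.2% of all genes.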

How the data were processed

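BMDMs of 10 mice were profiled by polyA RNA-seq, 4 libraries per mouse. The deposited table holds the raw counts per gene that the authors made by demultiplexing (bcl2fastq), trimming (Trimmomatic), alignment to mm10 (STAR) and counting of exonic reads (HTSeq). The annotation release and the strand setting are not given in the sources used here, so exonic overlaps with other genes are stated beside the members and the named genes with the largest ones. The table has 43430 gene rows, and 1 further column of undetermined reads was not used. Library totals were 6950748 to 13552070 counts (median 10361773.5), and exact intervals cover counting error only.

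Genes with low counts were removed with filterByExpr, which left 11853. Counts were TMM-scaled and fitted with edgeR 4.0.16 (R 4.3.3), using a quasi-likelihood test with 1 mean per group over all 40 libraries. Adjusted p-values are Benjamini-Hochberg values over all genes tested, with a threshold of 0.05. SEs were derived from the F statistic. CPM values used library totals multiplied by the TMM factors. Means are given with the SD over the 5 mice of a group.

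The 32 members, the lists, the markers and the tests were chosen with earlier results of these data known. Every member is given, and 1 gene of the list of other receptors is not reported here. Full values were given for the 3 largest rises and 2 largest falls of each class under LPS in WT and for each member called for piericidin A or for a difference between genotypes. From the other lists, the text names up to 5 genes with the largest LPS effect and those called under LPS with piericidin A. The mouse numbers in the labels pair libraries. Libraries of the same mouse deviated together from their group means (mean r = 0.453 over 60 pairs, 0.0995 to 0.769). The fit without this block was the main one. DESeq2 1.42.0, RLE scaling, library totals, no filter, the compared libraries alone, the mouse as a block and each mouse left out were alternatives. Leaving out both mice with the highest neutrophil markers was added after the data were seen. The scripts were tested on simulated data. Replicate libraries differed beyond sampling noise in all 80 pairs (chi-square per degree of freedom of at least 9.35), and sex-linked genes matched across the 4 libraries for 10 of 10 mice.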

Additional observations from a re-analysis of the deposited data

Results flagged for a closer look

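In 11 of 232 groups of 5 libraries, 1 library stood apart from the other 4 by Dixon's criterion, which chance alone meets in about 1 in 20 groups. WT mouse 496 had the highest Ccl2 with piericidin A (9.97 CPM), the highest untreated Cxcl12 (3.18 CPM) and the highest Cx3cr1 with LPS (8.5 CPM). NDI1 mouse 503 had the highest Ccl6 (599.8 CPM) and Cxcl12 (1.43 CPM) with piericidin A and the lowest Ccr1 with both agents (20.3 CPM). These are the mice with the highest neutrophil markers, whose part in these values was not tested. WT mouse 449 had the lowest untreated Ccl25 (0.815 CPM) and the highest Cxcl3 with both agents (33.9 CPM). Cxcl1 was lowest untreated in NDI1 mouse 461 (0.811 CPM) and highest with LPS in NDI1 mouse 447 (149.3 CPM), and Cxcl3 with LPS was lowest in NDI1 mouse 460 (22.1 CPM).

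The effect of piericidin A at rest differed between genotypes, NDI1 minus WT on the log2 scale, for Ccl4 (-4.53), Ccl3 (-3.97), Ccrl2 (-3.82), Cxcl2 (-3.25) and Cxcl1 (-3.17). Under LPS it differed for Cxcr4 (-2.98). Within WT, the effect of LPS with piericidin A minus that without it differed for Ccl4 (-4.67), Ccl3 (-4.44), Cxcl2 (-3.13), Ccrl2 (-3.0), Cxcl1 (-2.69), Cxcl3 (-2.36), Ccl9 (-0.92) and Cxcr4 (1.77). All passed edgeR's quasi-likelihood test of the difference itself. The differences within WT equal the effect of piericidin A under LPS minus that at rest.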

How the results depend on the processing

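Over 30 pairs of a gene and a comparison (LPS or piericidin A in WT, or a genotype difference in the effect of piericidin A), 361 of 390 alternative values kept their direction and side of the threshold, 29 lost the call, in 8 pairs, and 0 changed sign. This tally leaves out the LPS effect with minus without piericidin A and NDI1 against WT with both agents, for which only the counts of calls are given here. With the mouse as a replicate block, called members went to 11 for piericidin A under LPS in WT, 16 at rest in WT, 2 for the genotype difference under LPS and 13 for the LPS effect with minus without piericidin A. The block added single calls elsewhere, Ccl6 under LPS in both genotypes, Cxcl14 under LPS in NDI1, and Ccl6 and Cxcr4 in the genotype difference at rest, and it removed none. Using the compared libraries alone gave 2 for the genotype difference under LPS. Without both mice of the highest neutrophil markers, 3 were called for the genotype difference at rest and 3 for the LPS effect with minus without piericidin A.

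Leaving out 1 mouse at a time gave 25 to 26 called members for LPS in each genotype. Piericidin A gave 1 to 3 under LPS and 7 to 9 at rest in WT, and 0 in NDI1. The genotype differences gave 1 under LPS and 3 to 6 at rest, and the LPS effect with minus without piericidin A gave 3 to 8. NDI1 against WT gave 1 to 3 with both agents and 0 untreated or with LPS. Scaling by library totals alone moved the median log2 fold change of all genes under LPS in WT from -0.01 to -0.78, and 26 members were still called. Genes under 1 CPM, such as untreated Cxcl9 and Cxcl11, rest on few counts per library, which limits the precision of their fold changes.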
